A study of Mus musculus with 4 samples.

Results

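T8 is a leukemia cell line of B cell precursors, grown from 1 primary tumor of an Irf4-/- mouse. Described here are the genes that T8 cells transcribed after they had received the control retrovirus, termed EV-RV, which codes for GFP alone. These cells make up 2 of the 4 bulk RNAseq libraries of the series, replicate 1 and replicate 2 of the group labelled EV transduced, and were picked by that label. All 4 libraries share the T8 line and the Irf4-/- genotype, and the other 2 received a retrovirus coding for GFP and IRF4 (IRF4-RV). No EV-RV level was compared with IRF4-RV. Cells were collected 24 h after transduction. The age of the mouse is not given in the sources used here. As a model the group is limited to 1 line, which was first grown on a layer of ST2 stromal cells with medium that contained IL-7. The paper states that after several passages the line no longer needed ST2 cells. The protocol text in the labels names a second line, T11, where the titles and the tissue name T8.

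B cells develop in the bone marrow in steps that are marked by the genes they transcribe. Pro-B cells rearrange the immunoglobulin heavy chain gene with the RAG recombinase. A successful μ heavy chain then pairs with the surrogate light chain, made of λ5 (*Igll1*) and VpreB (*Vpreb1*, *Vpreb2*), to form the pre-B cell receptor, while IL-7 acts through its receptor and the kinases JAK1 and JAK3 to drive division. Small pre-B cells stop dividing, lose the surrogate light chain and rearrange the κ or λ light chain, and IRF4 and IRF8 are known to promote this step. Acute leukemia of B cell precursors is arrested within this path.

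The EV-RV libraries held 31686715 and 31230223 counts over 55359 gene identifiers. Levels are given as CPM, the counts divided by the library total and scaled to 1000000, always with replicate 1 before replicate 2. Genes are set side by side only as TPM, for which counts are first divided by the length of a gene's exons, and a single TPM value is the mean of both libraries. A gene was called expressed at 1 CPM or more in each library and off at 3 counts or fewer in each, since 3 counts is the limit that a count of 0 allows and equals 0.0947 CPM in replicate 1 and 0.0961 CPM in replicate 2. These limits cover counting error only. Of 21877 protein-coding genes, 9905 (45.3%) were expressed, 9215 (42.1%) were off, 5567 of these without a count in either library, and 2757 lay between. Both shares are the background for every gene list below, and the median over all protein-coding genes was 0.193 TPM. Among 9892 expressed protein-coding genes of the nuclear genome the median was 14.5 TPM, and 107 genes reached 1000 TPM.

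Both libraries gave closely similar levels, although the spread exceeded sampling noise: chi-square divided by its degrees of freedom was 8.61 over 26525 genes. Of 7724 expressed protein-coding genes of at least 10 CPM, 99.0% differed by no more than 1.5 times between the libraries. The labels call them biological replicates, and nothing in the sources used here says that they came from separate cultures, so the spread may be technical. Differences between the libraries followed gene length. The median log2 ratio of replicate 2 over replicate 1 was 0.050 among the 2571 genes with the shortest exon length and -0.12 among the 2571 with the longest. The 13 mitochondrially encoded protein genes were higher in replicate 2, with a median log2 ratio of 0.34. In bulk RNA, fewer cells with a transcript and less transcript per cell cannot be told apart.

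**Figure D1:**
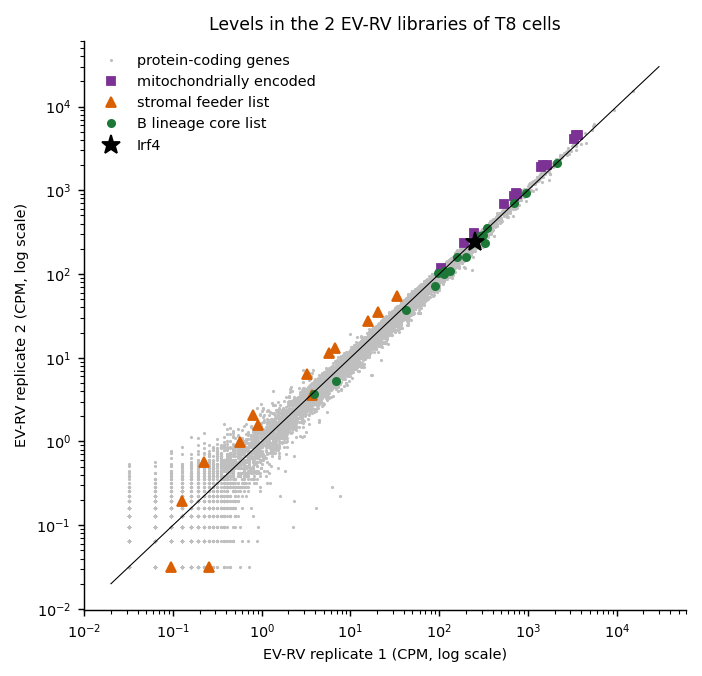
CPM of each protein-coding gene with a count in both libraries, replicate 1 on the horizontal and replicate 2 on the vertical axis, both on log scales, with the line of equal levels. Genes of the B lineage core list (green circles, immunoglobulin genes included) and *Irf4* (star) lie near the line, mitochondrially encoded genes (purple squares) lie slightly above it, and most genes of the stromal feeder list (orange triangles) lie clearly above it.

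The targeted gene was examined first. *Irf4* (ENSMUSG00000021356; GRCm38, chromosome 13, 30749226 to 30766976, plus strand) had 8070 and 7600 counts, or 255 and 243 CPM. Its mean level was 249 ± 8.01 CPM (SD, n = 2), or 110.3 TPM, which placed it at rank 937 of the 9892 expressed protein-coding genes. Its transcript was thus abundant in both libraries of this Irf4-/- line. Counts per gene do not show which exons the reads cover and do not tell an intact from a disrupted allele, so this value does not check the genotype, and says nothing of IRF4 protein.

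The B lineage identity of the cells was checked against its defining genes. Of 18 core B lineage genes, 18 were expressed, with a median of 71.5 TPM. *Ighm*, the constant region of the μ heavy chain, stood at 2122 and 2117 CPM (2440.4 ± 56.6 TPM (SD, n = 2)). *Cd79a* and *Cd79b*, which carry the signal of the receptor into the cell, stood at 959 and 931 CPM and at 309 and 296 CPM. Per length, *Cd79a* reached 1408 TPM and *Cd79b* 459 TPM. *Pou2af1*, a coactivator of immunoglobulin genes, was at 705 and 699 CPM, or 598 TPM. *Vpreb3*, a partner of newly made μ chains, was at 97.7 and 104 CPM (255 TPM). Both libraries were alike for these genes. The gene for B220, *Ptprc*, was at 199.9 and 159 CPM, and the adaptor *Blnk* at 114 and 109 CPM. The lowest member was *Bank1*, another adaptor of the receptor, at 3.85 and 3.65 CPM.

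Early transcripts of the pro-B and preB-I stages were among the most abundant genes of the cells. The surrogate light chain genes and *Cd24a* were its highest members per length. *Vpreb2* was at 571 and 648 CPM (1741 ± 118 TPM (SD, n = 2)), *Vpreb1* at 644 and 725 CPM (1239 ± 77.8 TPM (SD, n = 2)) and *Igll1* at 941 and 1022 CPM (985 ± 36.5 TPM (SD, n = 2)). Their ranks among expressed genes were 62, 95 and 108. *Vpreb1* and *Vpreb2* are near-identical copies, so the split of counts between them is uncertain. *Cd24a*, which codes for the surface glycoprotein HSA, was at 1667 and 1810.4 CPM and 1462 TPM. *Enpep*, an aminopeptidase known as BP-1, was at 834 and 770.0 CPM, or 370.3 TPM. *Spn*, which codes for CD43, was at 201 and 178 CPM, or 88.1 TPM. In all, 13 of 17 members of the list were expressed, against 45.3% of all protein-coding genes, with a median of 45.4 TPM.

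The recombinase stood apart from the other early genes. *Rag1* had 1 and 0 counts and *Rag2* 0 and 1, so both were off, and the limit of 3 counts equals 0.0947 and 0.0961 CPM. *Erg*, an ETS factor of early progenitors, had 2 and 0, and *Arpp21*, a phosphoprotein found in early B cells, had 1 and 3. These were the 4 members that were off. *Dntt*, the polymerase that adds bases at heavy chain junctions, was expressed at 2.71 and 2.88 CPM, the lowest value of the expressed members. Joining enzymes were present: of 15 genes of V(D)J recombination and end joining, 13 were expressed and only *Rag1* and *Rag2* were off. The DNA-bending cofactors *Hmgb2* and *Hmgb1* were at 618 TPM and 562 TPM. The break-binding proteins *Xrcc5* and *Xrcc6* were at 91.6 TPM and 40.1 TPM, the polymerase *Poll* was at 18.5 TPM, and the kinase *Atm* was at 10.9 TPM.

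**Figure D2:**
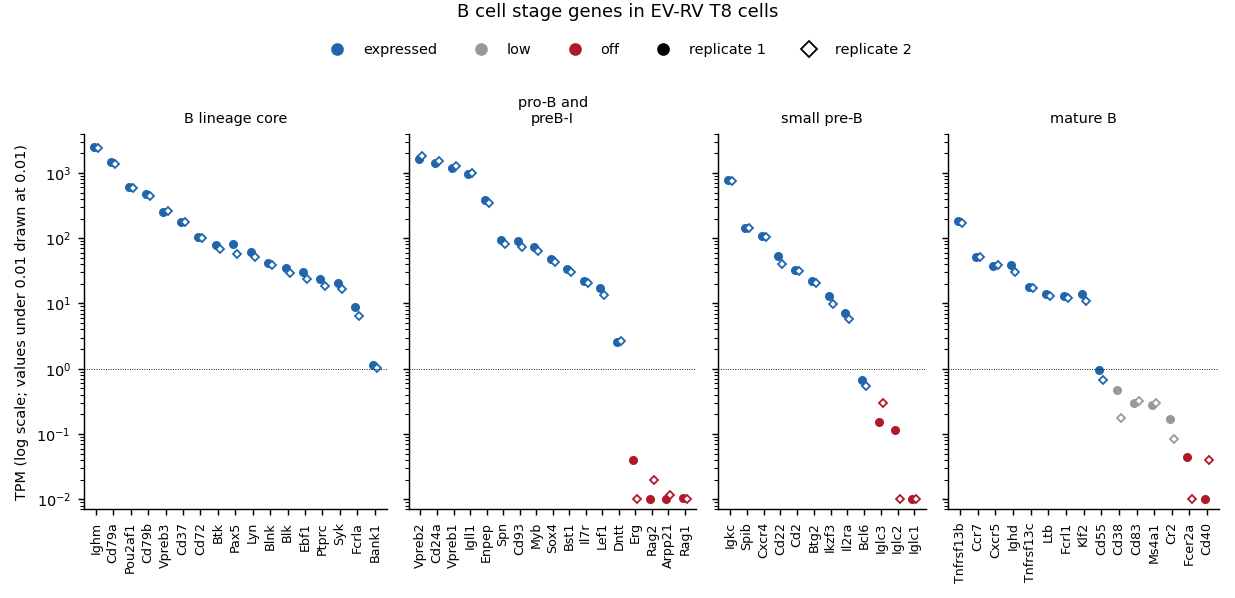
TPM on a log scale for the genes of the B lineage core, pro-B and preB-I, small pre-B and mature B lists, ordered by mean level, with filled circles for replicate 1 and open diamonds for replicate 2; the dotted line marks 1 TPM and values under 0.01 are drawn at 0.01. Blue genes were expressed, gray were low and red were off. The surrogate light chain genes and *Cd24a* lie between 985 TPM and 1741 TPM, while *Rag1*, *Rag2*, *Erg* and *Arpp21* lie at the bottom of the same list.

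Promoter windows of the surrogate light chain genes, which were among the most abundant transcripts, and of *Rag1*, which was off, are shown. They were picked after these levels were seen. Each window runs from 250 bases before to 50 bases after the annotated start of the gene and was taken from RefSeq on GRCm38.p6. In *Vpreb2* the 50 bases after this start begin with ATG, the triplet of a start codon. Its annotated start may thus lie downstream of the start of transcription. Capitals mark CAGGTG on either strand (CACCTG in reverse), the E-box that E2A, the product of *Tcf3*, is known to bind.
Igll1, chr16:16863936-16864235, minus strand: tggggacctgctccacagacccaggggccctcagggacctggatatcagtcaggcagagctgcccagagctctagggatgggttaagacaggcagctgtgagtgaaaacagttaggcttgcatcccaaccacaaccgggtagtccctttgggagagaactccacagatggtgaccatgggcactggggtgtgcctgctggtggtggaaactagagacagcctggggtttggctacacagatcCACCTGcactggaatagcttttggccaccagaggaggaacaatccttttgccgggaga
Vpreb1, chr16:16869206-16869505, minus strand: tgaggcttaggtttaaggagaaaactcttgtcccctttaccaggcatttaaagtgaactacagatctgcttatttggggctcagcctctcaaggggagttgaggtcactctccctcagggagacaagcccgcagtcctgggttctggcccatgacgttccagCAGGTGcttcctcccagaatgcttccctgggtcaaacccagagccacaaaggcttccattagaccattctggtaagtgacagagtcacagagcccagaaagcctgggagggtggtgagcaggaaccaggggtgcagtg
Vpreb2, chr16:17980315-17980614, plus strand: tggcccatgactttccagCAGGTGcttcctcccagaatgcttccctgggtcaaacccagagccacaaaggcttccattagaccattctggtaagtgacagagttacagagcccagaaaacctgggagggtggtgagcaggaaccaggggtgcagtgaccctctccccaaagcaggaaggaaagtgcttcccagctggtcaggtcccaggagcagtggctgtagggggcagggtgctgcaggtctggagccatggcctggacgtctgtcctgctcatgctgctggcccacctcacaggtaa
Rag1, chr2:101649483-101649782, minus strand: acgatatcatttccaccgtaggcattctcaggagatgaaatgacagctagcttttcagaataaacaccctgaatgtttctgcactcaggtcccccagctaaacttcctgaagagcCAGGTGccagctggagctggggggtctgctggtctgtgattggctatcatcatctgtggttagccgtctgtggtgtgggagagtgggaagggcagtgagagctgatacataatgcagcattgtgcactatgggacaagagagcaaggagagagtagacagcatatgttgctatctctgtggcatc

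All 4 windows held 1 match, whether the gene was abundant or off. Counted from 1 at the 5′ end of the window, the match began at base 243 in *Igll1*, 163 in *Vpreb1*, 19 in *Vpreb2* and 116 in *Rag1*. These positions are set by the annotated starts. They do not show that the motif lies at different distances from the start of transcription. Aligned at this match, the *Vpreb1* and *Vpreb2* windows shared 153 of 156 bases, and their longest identical run was 91 bases. *Igll1* and *Vpreb1* are neighbors, with 4418 bases between the annotated genes, and *Vpreb2* lies elsewhere on chromosome 16. Of all 32851 promoter windows, 20.2% held the motif. It was found in 16.7% of the 10066 windows of expressed protein-coding genes and in 23.1% of the 7456 windows of those that were off. A match is a description of the letters only. *Tcf3* itself was at 303 and 273 CPM, or 155 TPM.

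The heavy chain locus was dominated by 1 V segment. Of 185 annotated Ighv segments, 20 had a count, and *Ighv1-2* held 6560 of 6805 Ighv counts in replicate 1 (96.4%, exact Clopper-Pearson 95% interval 95.9 to 96.8%) and 6249 of 6444 in replicate 2 (97.0%, 96.5 to 97.4%). GENCODE M21 classes *Ighv1-2* as a V pseudogene. *Ighv1-82* followed with 181 and 127 counts, and *Ighv1-64* with 45 and 56. Among the 4 J segments, *Ighj3* held 721 of 765 counts (94.2%, 92.4 to 95.8%) and 702 of 741 (94.7%, 92.9 to 96.2%), and *Ighj4* held the rest. *Ighd4-1* held 125 of 126 D segment counts in replicate 1 and 151 of 151 in replicate 2. Counts per gene do not show which segments lay on the same transcript, and similar V segments can share reads. Reads without molecular identifiers are not independent molecules, so the intervals cover counting error only.

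The leading segments are printed as the reference holds them, on the minus strand of chromosome 12 of GRCm38, to show which germline sequences these counts stand for. They are not the sequence of the rearranged gene in T8. For *Ighv1-2* (chr12:114469075-114469535) only the last 96 of 378 bases are given, from base 283, which is the end that joins the D segment. The other 2 are *Ighd4-1* (chr12:113430528-113430538) and *Ighj3* (chr12:113429085-113429132), both shown whole, and *Ighj4* (chr12:113428514-113428567) is the J segment with the remaining counts.
Ighv1-2: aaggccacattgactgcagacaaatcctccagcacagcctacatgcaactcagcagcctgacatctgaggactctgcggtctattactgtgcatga
Ighd4-1: ctaactgggac
Ighj3: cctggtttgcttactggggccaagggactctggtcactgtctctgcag
Ighj4: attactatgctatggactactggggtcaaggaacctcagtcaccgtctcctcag

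Transcripts of the κ constant region were present at a lower level than *Ighm*. *Igkc*, the κ constant region (chromosome 6, 70726435 to 70726966), had 5915 and 5875 counts, or 187 and 188 CPM (765 TPM). By intracellular staining the paper detected μ but no κ or λ chain in T8 cells, so these transcripts do not stand for light chain protein. Of 160 Igkv segments, 40 had a count, and their counts summed to 418 and 424. *Igkv14-111* held 41.1% of them in replicate 1 (36.4 to 46.0%) and 41.5% in replicate 2 (36.8 to 46.4%), and *Igkv9-124* had 100 and 103 counts. κ counts were therefore spread over more segments than Ighv counts. *Igkj1* held 110 of 160 Igkj counts and 94 of 138. The λ constant regions *Iglc2* and *Iglc3* had 1 and 0 and 1 and 2 counts, and Iglc1 had none, so all 3 were off.

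Genes that follow the small pre-B stage were mostly on. Of 12 members, 9 were expressed, with a median of 16.4 TPM, and the 3 that were off were the λ constant regions. After *Igkc* came *Spib*, an ETS factor, at 187 and 195 CPM (145 TPM), and *Cxcr4*, the receptor for the stromal chemokine CXCL12, at 88.3 and 86.6 CPM (105 TPM). *Cd22*, an inhibitory lectin, was at 122 and 94.7 CPM, and *Cd2*, an adhesion molecule gained by small pre-B cells, at 25.4 and 25.1 CPM. *Il2ra*, which codes for CD25, was at 18.3 and 15.4 CPM, and *Bcl6*, a repressor of the quiescent pre-B stage, at 2.05 and 1.70 CPM. Among these genes *Cd22* had the widest gap between the libraries. Stem cell and multipotent progenitor genes were at the other end. Only *Slamf1* of 13 was expressed, at 3.12 and 2.66 CPM, and the list median was 0.0447 TPM. Kit and Hlf had no count, and *Cd34*, *Mecom* and *Meis1* were off with at most 3 counts in each library. *Flt3*, a receptor of early progenitors, was low at 0.726 and 0.448 CPM.

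Several genes of mature B cells were expressed beside the early ones. Of 16 members, 9 were expressed and 2 were off, with a median of 6.59 TPM. *Tnfrsf13b*, the BAFF and APRIL receptor TACI, led with 233 and 227 CPM (176 TPM). *Ccr7* and *Cxcr5*, which guide B cells in lymphoid organs, were at 46.6 and 48.3 CPM and at 57.4 and 60.9 CPM. *Ighd*, the δ constant region, was at 33.4 and 26.6 CPM, and *Tnfrsf13c*, the BAFF receptor, at 16.5 and 16.3 CPM. *Fcer2a*, which codes for CD23, and *Cd40* were off, with 2 and 0 and 0 and 2 counts. *Ms4a1*, which codes for CD20, was low at 0.789 and 0.865 CPM, as was *Cr2* at 0.631 and 0.320 CPM.

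Of 10 MHC class II genes, 7 were expressed and none was off, with a median of 2.27 TPM. *H2-Ab1*, the β chain of I-A, was at 71.0 and 75.1 CPM, and *Cd74*, the invariant chain, at 20.1 and 15.5 CPM. *H2-Aa*, the α chain of the same molecule, was low at 0.473 and 0.833 CPM, and *Ciita*, the master regulator of the class, was at 1.10 and 0.768 CPM. Chains of one complex therefore stood at unlike levels, 61.7 TPM against 0.372 TPM. In contrast, all 12 genes of MHC class I and peptide loading were expressed. *B2m* reached 1191 and 1192 CPM (3008 TPM), *H2-D1* 1541 and 1583 CPM and *H2-K1* 1283 and 1321 CPM.

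Germinal center and plasma cell genes were split in the same way. *Rgs13*, a regulator of G protein signals, was off with 1 and 1 counts, while 5 of 8 germinal center genes were expressed, led by *Gna13* at 141 and 136 CPM and the uracil glycosylase *Ung* at 58.4 and 65.5 CPM. Of 9 genes of cytosine deaminases and related enzymes, 5 were expressed (55.6%, against 45.3% of all protein-coding genes), 2 were low and 2 were off. The cytosine deaminase *Apobec3* was at 143 and 127 CPM (31 TPM), its relative *Apobec1* at 39.2 and 32.9 CPM (29.0 TPM) and the RNA adenosine deaminase *Adar* at 69.8 and 61.6 CPM. Of 9 plasma cell genes, 5 were expressed. *Mzb1*, a chaperone of immunoglobulin assembly, was at 65.9 and 65.6 CPM, and *Xbp1*, a factor of the secretory response, at 131 and 145 CPM. *Sdc1*, which codes for CD138, was at 16.4 and 18.8 CPM, but *Prdm1*, the main plasma cell factor, was low at 0.252 and 0.288 CPM, and Tnfrsf17, which codes for BCMA, had no count.

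Genes that define other blood lineages were mostly off. Of 13 granulocyte genes 12 were off, and the remaining one, the G-CSF receptor gene *Csf3r*, was at 1.07 and 1.12 CPM. Of 13 monocyte and macrophage genes 9 were off, among them *Lyz2* and *Csf1r*, and only the chemokine receptor *Ccr2* was expressed, at 7.16 and 5.92 CPM. No gene of mast cells and basophils (8 genes) or of megakaryocytes (9 genes) was expressed, and 7 and 6 of them were off. Medians of these 4 lists were between 0 and 0.0298 TPM, against 0.193 TPM for all protein-coding genes. Of 12 genes of NK and innate lymphoid cells 9 were off, and the 2 expressed were *Id2*, a partner that blocks E proteins, at 7.07 and 6.28 CPM and the lectin-like receptor *Klrb1c* at 1.33 and 1.06 CPM. Dendritic cells were represented by *Bst2*, which interferon also induces, at 85.5 and 96.4 CPM, and by *Tcf4* at 66.3 and 57.5 CPM, while the defining genes *Zbtb46* (0.852 and 0.768 CPM) and Itgax (no count) were low or off.

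Some T cell genes were expressed. *Lck*, the kinase next to the T cell receptor, was at 345 and 341 CPM (254 TPM). *Trac*, the constant region of the α chain, was at 19.3 and 19.3 CPM, *Zap70*, another receptor kinase, at 30.0 and 28.1 CPM, and the adaptor *Lat* at 25.3 and 26.7 CPM. *Tcf7* was at 10.2 and 6.60 CPM and *Cd28* at 3.53 and 4.13 CPM. Of 23 T cell genes these 6 were expressed and 13 were off, against 42.1% of all protein-coding genes. The defining ones were at or near 0. *Cd3d* had 2 and 3 counts, *Cd3e* 2 and 1 and *Cd3g* 0 and 1, and Cd247, Cd8a, Cd8b1, Trbc1 and Trbc2 had none. *Cd4* had 3 and 0 counts. The γ chain locus was transcribed as well, in genes that were looked up after their levels were seen. *Tcrg-C2* (chromosome 13, 19304649 to 19307551) was at 244 and 278 CPM, *Tcrg-C1* at 35.1 and 42.3 CPM and the joining segment *Trgj2* at 11.9 and 14.6 CPM. No V segment accompanied them: all 7 γ and all 35 β V segments were off, and none of 134 α and δ V segments was expressed.

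Erythroid genes were mixed. *Tfrc*, the transferrin receptor, which dividing cells use in general, was at 263 and 243 CPM. The β globin genes *Hbb-bt* and *Hbb-bs* were at 7.70 and 7.59 CPM and at 3.82 and 4.10 CPM, while *Hba-a1* and *Hba-a2* were low at 0.0316 and 0.192 CPM and at 0.0316 and 0.128 CPM. Gata1 had no count. Outside the blood, the neuronal tubulin gene *Tubb3* was at 138 and 144 CPM, the endothelial adhesion gene *Pecam1* at 29.7 and 24.5 CPM and the transferrin gene *Trf* at 51.2 and 57.0 CPM. Each was the only expressed member of its list, of 8, 6 and 6 genes, and no epithelial gene of 6 was expressed.

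**Figure D3:**
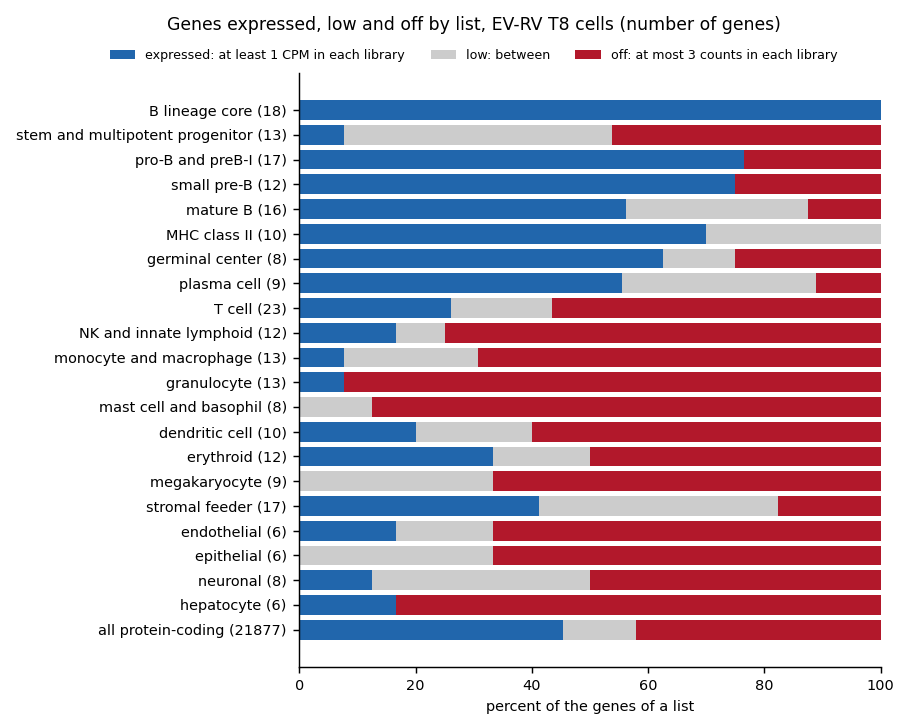
Share of the genes of each stage and lineage list that were expressed (blue, at least 1 CPM in each library), low (gray) or off (red, at most 3 counts in each library), with the number of genes in parentheses and all protein-coding genes in the lowest bar. B cell lists are mostly blue, while the granulocyte, mast cell and hepatocyte lists are 92.3%, 87.5% and 83.3% red, against 42.1% of all protein-coding genes.

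Genes of the stromal feeder list differed between the libraries. The list holds 17 genes, 7 expressed and 3 off, and its summed level was 92.1 CPM in replicate 1 and 158 CPM in replicate 2. Of 14 members that were not off, 12 were higher in replicate 2, with a median log2 ratio of 0.80. *Fn1*, fibronectin, was at 33.5 and 55.3 CPM, *Col1a1* at 15.7 and 27.2 CPM, *Col1a2* at 20.7 and 35.5 CPM and *Col3a1* at 5.71 and 11.4 CPM. *Cxcl12*, the ligand of CXCR4, was at 6.63 and 13.1 CPM, and *Sparc* at 3.25 and 6.47 CPM. *Acta2* was the exception among the expressed members, at 3.72 and 3.59 CPM. The defining stromal genes Lum and Dcn had no count. Among the members that were low, the receptor genes *Pdgfra* and *Pdgfrb* were at 0.789 and 2.05 CPM and at 0.568 and 0.993 CPM. *Il6st*, a cytokine receptor gene outside this list, was at 1.39 and 2.75 CPM. The part of stromal cells in these levels was not tested. *Il7*, a gene of stromal cells, went the other way, at 0.252 and 0.0320 CPM.

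Receptors for IL-7 and TSLP were transcribed with all their subunits. *Il7r*, the α chain of both, was at 47.0 and 44.2 CPM (21.2 ± 1.36 TPM (SD, n = 2)). *Il2rg*, the common γ chain that completes the IL-7 receptor, was at 34.1 and 34.4 CPM (31.1 ± 0.428 TPM (SD, n = 2)), and *Crlf2*, which completes the TSLP receptor, was at 55.5 and 58.3 CPM (82.6 ± 1.11 TPM (SD, n = 2)). *Crlf2* was therefore the highest of the 9 members per length, and the ranges of these 3 genes over both libraries did not overlap. *Il21r* was at 14.5 and 13.7 CPM, *Il4ra* at 16.7 and 17.7 CPM and *Il15ra* at 7.04 and 6.44 CPM. *Il2rb*, the chain shared by the IL-2 and IL-15 receptors, was low at 0.126 and 0.224 CPM, and *Il9r* was off with 0 and 1 counts. Tslp had no count.

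Per length, JAKs and STATs followed in the order *Jak1*, *Stat6*, *Stat5b*, *Jak3*, *Stat3*, *Tyk2*, *Jak2* and *Stat5a*. *Jak1*, which binds the IL-7 receptor α chain, was at 261 and 203 CPM (69.9 ± 13.8 TPM (SD, n = 2)). *Jak3*, which binds the γ chain, was at 73.5 and 68.2 CPM (28.8 ± 2.13 TPM (SD, n = 2)), and *Jak2*, which binds CRLF2, at 26.7 and 20.6 CPM (10.2 ± 2.08 TPM (SD, n = 2)). The 3 kinases were apart from each other in both libraries, and each was higher in replicate 1. By exome sequencing the paper found *Jak3* mutated in tumor T8, from which the line was grown. It also reports a *Jak1* mutation at low frequency in that tumor. Counts per gene do not tell mutated from unmutated transcripts. *Stat5b* was at 78.1 and 73.5 CPM and *Stat5a* at 36.1 and 30.3 CPM. Ranges overlapped between *Stat5b* and *Jak3*, between *Stat3* and *Tyk2*, and between *Jak2* and *Stat5a*. *Stat4* was the only one of 11 members that was off, with 0 and 2 counts. All 18 genes of JAK-STAT feedback and targets were expressed, with a median of 20.0 TPM. *Myc* led with 294 and 285 CPM (232 TPM), followed by the cyclin gene *Ccnd3* with 715 and 727 CPM (178 TPM) and the survival gene *Mcl1* with 187 and 179 CPM (116 TPM). Feedback inhibitors were at 94.6 TPM for *Socs2* and 22.4 TPM for *Socs3*, and *Cish* was at 14.4 and 14.5 CPM. The kinases *Pim1* and *Pim3* were at 75.3 TPM and 48.7 TPM.

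**Figure D4:**
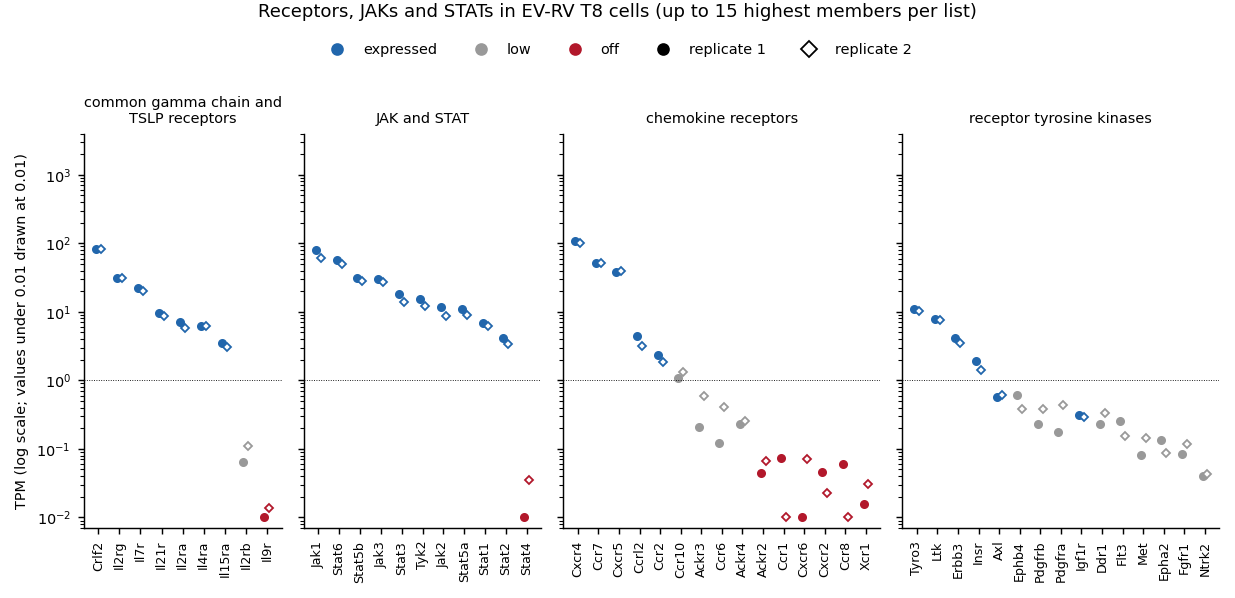
TPM on a log scale for receptors of the common γ chain and TSLP, JAKs and STATs, chemokine receptors and receptor tyrosine kinases, at most 15 genes per list in order of mean level, with filled circles for replicate 1, open diamonds for replicate 2 and a dotted line at 1 TPM. *Crlf2*, *Jak1* and *Cxcr4* lead their lists, and most receptor tyrosine kinases lie below 1 TPM.

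Few receptor tyrosine kinases reached the limit for expressed genes. Of 31 members 6 were expressed (19.4%, against 45.3% of all protein-coding genes) and 14 were low. The other 11 were off (35.5%, against 42.1%). *Tyro3* was highest at 30.4 and 30.0 CPM (10.6 TPM), followed by *Ltk* at 12.9 and 13 CPM and *Erbb3* at 11.2 and 9.99 CPM, and the insulin receptor gene *Insr* was at 12.1 and 8.97 CPM. Mertk had no count. Chemokine receptors were similarly few, with 5 of 23 expressed and 14 off. *Cxcr4*, *Ccr7* and *Cxcr5* stood at 105 TPM, 52.1 TPM and 38.6 TPM with no overlap between them, and *Ccrl2* and *Ccr2* were at 3.80 TPM and 2.10 TPM. The atypical receptors *Ackr2* and Ackr1 were off, with 2 and 3 counts for the former and none for the latter.

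Among 36 other cytokine receptors 23 were expressed. Subunits of the interferon receptors were at 42.7 TPM for *Ifngr1*, 15.5 TPM for *Ifngr2* and 18.2 TPM for *Ifnar2*. *Il17ra* was at 115 and 108 CPM (27.9 TPM). *Csf2rb*, the β chain shared by the receptors for IL-3, IL-5 and GM-CSF, was at 55.9 and 51.2 CPM (16.0 TPM), and *Bmpr1a* was at 48.9 and 50.5 CPM. The erythropoietin receptor gene *Epor* was off with 0 and 3 counts. Of 23 TNF receptor family genes 9 were expressed, led after *Tnfrsf13b* by *Tnfrsf19* at 78.6 and 75.9 CPM and *Tnfrsf1b* at 36.1 and 34.9 CPM, and *Cd27* was off with 1 and 2 counts.

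Integrin and Toll-like receptor genes were expressed at shares near that of all protein-coding genes (45.3%). Of 26 integrin genes 10 were expressed. *Itgb1* was at 205 and 186 CPM (104 TPM), *Itga6* at 272 and 249 CPM (62.7 TPM) and *Itgb2* at 47.9 and 43.1 CPM (32.4 TPM). *Itga4*, which with *Itgb1* forms the receptor for VCAM-1, was at 41.1 and 32.8 CPM. The myeloid integrins Itgam, Itgax and Itgad had no count. Of 16 Toll-like receptor genes and partners 7 were expressed. *Cd180* and its partner *Ly86* were at 51.5 and 47.6 CPM and at 35.4 and 37.3 CPM. *Tlr9*, the receptor for CpG DNA, was at 19.7 and 18.7 CPM, whereas *Tlr7* was off with 0 and 1 counts. Inhibitory receptors were led by *Cd72* at 159 and 158 CPM, and *Fcgr2b*, the inhibitory Fc receptor, was at 22.9 and 21.7 CPM. Among lipid receptors the sphingosine phosphate receptor *S1pr4* was at 25.9 and 29.1 CPM and *S1pr1* at 9.85 and 10.4 CPM, and 11 of 30 were expressed.

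The pre-B cell receptor pathway was transcribed nearly whole. Of 28 members 27 were expressed, with a median of 34.3 TPM, and *Vav3* was off with 3 and 1 counts. Below *Cd79a* and *Cd79b* were the phosphatase *Ptpn6* at 275 and 238 CPM (199 TPM), the phospholipase *Plcg2* at 397 and 324 CPM (182 TPM) and the adaptor *Grb2* at 152 and 153 CPM (113 TPM). The tyrosine kinases *Btk* and *Syk* were at 111 and 102 CPM and at 88.7 and 71.9 CPM, and *Lyn* was at 112 and 99.3 CPM. *Plcg1*, the form used by T cells, was at 2.02 and 1.47 CPM, far below *Plcg2*. Genes coding for the targets of the inhibitors that the study applied to these leukemias were expressed in 23 of 27 cases. Subunits of the phosphatase PP2A led that list, with *Ppp2r1a* at 301 and 311 CPM, *Ppp2cb* at 58.3 and 57.6 CPM and *Ppp2ca* at 225 and 226 CPM. *Gfi1*, a repressor, was at 28.5 and 25.3 CPM. The hedgehog factor *Gli1* was off with 2 and 2 counts, *Mapk10* was off with 3 and 1, and Gli2 had no count.

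Genes that are recurrently lost or mutated in human B cell precursor leukemia were transcribed in 24 of 25 cases. Counts do not show whether these transcripts carry mutations. *Tcf3* led with 155 TPM, followed by *Ikzf1*, which codes for IKAROS, at 344 and 307 CPM (122 TPM). *Trp53* was at 219 and 214 CPM (116 TPM) and *Cdkn2a* at 69.5 and 55.3 CPM (116 TPM). *Pax5* was at 329.9 and 236 CPM (69.5 ± 17.8 TPM (SD, n = 2)), so its libraries differed more than those of most genes named here. The ranges of *Trp53* and *Cdkn2a* per length overlapped. Cd200 had no count. Kinase and receptor genes of Ph-like leukemia, a human subtype with activated kinases, were expressed in 17 of 27 cases, led by *Crlf2*, *Jak1* and *Lyn*. *Nras* was at 125 and 123 CPM. Of the BCL2 family 13 of 19 genes were expressed. *Mcl1* was the highest survival gene per length at 116 TPM, the effectors *Bax* and *Bak1* were at 105 TPM and 95.3 TPM, and *Bcl2l1* was at 19.8 TPM. *Bcl2* itself was at 28.5 and 23.6 CPM. Bcl2a1a and Bcl2a1b had no count. Genes for targets of antibody and cell therapies were on in 13 of 18 cases, among them *Cd22* and *Cd79b*, while Cd33 had no count.

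Transcription factors of the B lineage were nearly all present. Of 31 factors 30 were expressed, with a median of 27.0 TPM, and *Erg* was the one that was off. *Pou2af1* led, followed by *Cbfb*, the partner of RUNX factors, at 359.8 and 338 CPM (218 TPM), *Tcf3* at 155 TPM and *Spib* at 145 TPM. *Ebf1*, which specifies the lineage, was at 133 and 109 CPM, and *Foxo1*, which activates RAG genes, at 31.8 and 30.2 CPM. *Spi1*, which codes for PU.1, was at 40.2 and 37.8 CPM (31.5 TPM), lower per length than its relative *Spib*. Within the IRF family, *Irf4* (110.3 TPM) and *Irf8* (247 and 229 CPM, 73.3 ± 5.62 TPM (SD, n = 2)) were the highest. *Irf3*, *Irf5* and *Irf2* came next at 36.7 TPM, 34.5 TPM and 30.4 TPM. Neighbors in this order did not overlap between the libraries. Of 24 ETS factors 16 were expressed, with *Elf1* at 64.1 TPM and *Ets1* at 57.8 TPM after *Spib*, and *Ehf* was off with 0 and 1 counts. Elf3, Spic and Etv2 had no count.

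**Figure D5:**
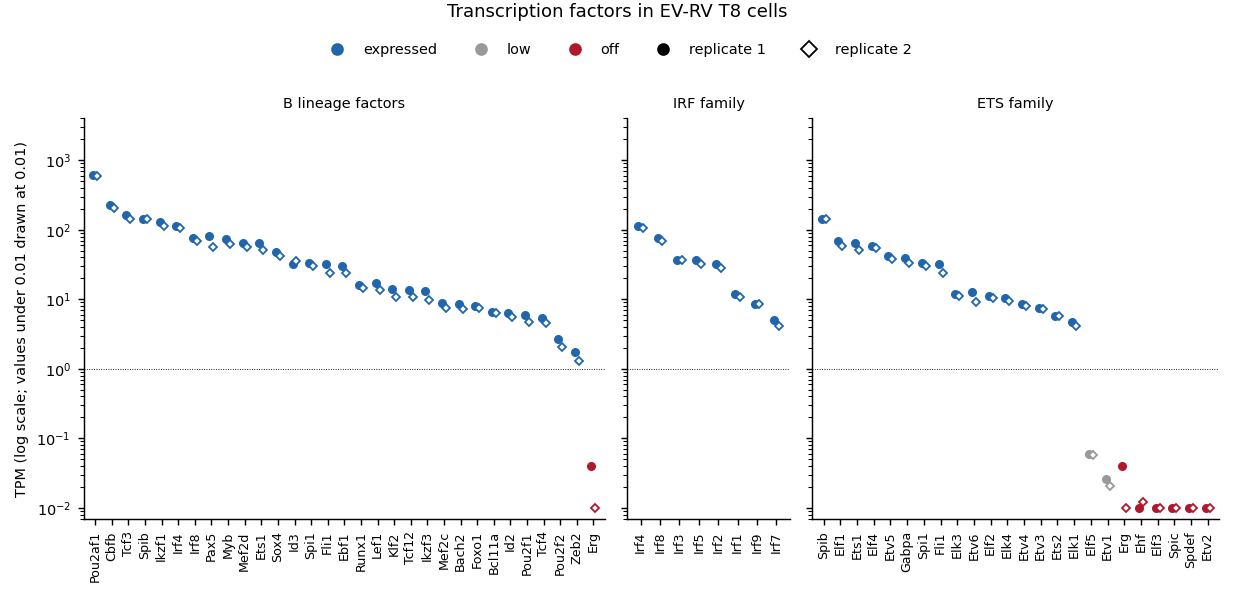
TPM on a log scale for transcription factors of the B lineage, the IRF family and the ETS family, ordered by mean level, with filled circles for replicate 1, open diamonds for replicate 2 and a dotted line at 1 TPM; blue genes were expressed, gray were low and red were off. *Pou2af1* leads the B lineage factors at 598 TPM, *Irf4* and *Irf8* lead the IRF family, and *Erg* is off in both lists that hold it.

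Factors of other lineages were transcribed in part. Of 23 GATA, C/EBP and TAL factors and their partners 11 were expressed (47.8%), a share near that of all protein-coding genes (45.3%). *Lyl1*, a bHLH factor of progenitors, was at 175 and 171 CPM (209 TPM), *Zfpm1* at 132 and 109 CPM and the bridging factors *Ldb1* and *Lmo2* at 116 and 109.8 CPM and at 34.4 and 30.6 CPM. Gata1 had no count, *Gata3* had 0 and 1 counts, and *Cebpa* was low at 0.410 and 0.640 CPM. Of 18 T and NK lineage factors 8 were expressed (44.4%), again near that share. They were led by *Hes1*, a target of Notch, at 37.5 and 31 CPM and *Runx3* at 64.2 and 55.2 CPM. *Tbx21* and *Eomes* were off with 2 and 2 counts and 2 and 0. AP-1 and BATF factors were expressed in 11 of 14 cases. *Jund* was at 138 and 128 CPM, *Batf*, which binds DNA together with IRF4, at 62.4 and 60.6 CPM, and *Junb* at 88.3 and 90.9 CPM, whereas *Jun* was at 1.10 and 1.06 CPM. Of 50 HOX and TALE genes 33 were off, against 42.1% of all protein-coding genes, and of the 39 HOX genes only *Hoxb6* and *Hoxb4* were expressed, at 2.78 and 2.85 CPM and at 2.02 and 2.24 CPM. *Pknox1*, a TALE factor, was highest of the list at 62.8 and 55.0 CPM.

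Most NF-kB, NFAT and MYC network genes were expressed, against 45.3% of all protein-coding genes. Of 10 NF-kB and NFAT genes 8 were expressed, led by *Rela* at 73.7 and 73.7 CPM (52.1 TPM), *Nfatc1* at 28.7 TPM and *Nfatc3* at 27.9 TPM, and *Nfatc2* was off with 1 and 2 counts. Of 12 genes of the MYC network 11 were expressed. *Max* was at 131 and 138 CPM and *Mycn* at 49.0 and 38.7 CPM, far below *Myc* per length, and *Mycl* was off with 0 and 2 counts. FOX factors were expressed in 12 of 18 cases, with *Foxk2* at 43.6 TPM and *Foxp4* at 33.6 TPM, and *Foxc1*, a mesenchymal factor, at 70.0 and 59.7 CPM. KLF and SP factors were expressed in 16 of 26 cases, led by *Sp3* at 43.1 TPM, and Klf5 had no count. Of 37 nuclear receptors 17 were expressed (45.9%), a share near that of all protein-coding genes. *Rxrb* was highest at 122 and 119 CPM, and *Nr3c1*, the glucocorticoid receptor, was at 89.9 and 83.8 CPM (24.6 TPM).

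The cells carried transcripts of dividing cells. All 22 proliferation genes were expressed, with a median of 119 TPM. *Pcna*, the sliding clamp of DNA replication, was at 680.3 and 739.9 CPM (642 TPM), *Cdk4* at 446 and 483 CPM and the replication helicase genes *Mcm3* and *Mcm5* at 468 and 452 CPM and at 475 and 491 CPM. *Mki67* was at 83.7 and 62.0 CPM and *Top2a* at 673 and 492 CPM, both higher in replicate 1. Of the D cyclins, *Ccnd3* was highest per length at 178 TPM, *Ccnd2* was at 94.4 TPM and *Ccnd1* was at 24.3 and 24.3 CPM. Mitochondrially encoded genes aside, the 15 protein-coding genes with the highest levels per length served translation and chromatin. *Eef1a1*, an elongation factor, led with 15347 and 15543 CPM (13452 TPM) and took 1.53 and 1.55% of all counts. *Rplp1* (10599 TPM), *Ptma* (7803 TPM), *Rplp0* (7377 TPM), *Rps2* (6929.7 TPM), *Rps3a1* (6448 TPM), *Eef2* (5995 TPM), *Rps15* (5351 TPM) and *Rpl8* (5324 TPM) followed. The histone genes *Hist1h2ao* and *Hist1h2ap* were the only 2 of the 15 outside translation beside *Ptma*, a chromatin-linked acidic protein, and are near-identical copies whose counts cannot be assigned with certainty. The remaining ones were *Rpl32*, *Rpl36*, *Rpl41* and *Rps6*.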

How the data were processed

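Bulk RNAseq libraries of EV-RV transduced T8 cells (n = 2) were described, grouped by the condition, title and tissue in the labels. RNA was extracted with a column kit and libraries were made with NEBNext Ultra II. According to the submitters' processing notes, FastQC 0.11.2, STAR 2.4.0j, featureCounts, DESeq2 1.22.1 and GRCm38 were used. The authors deposited raw counts per gene, which are whole numbers without normalization. Whether strand was used, and how multi-mapping reads were treated, is not given in the sources used here, so overlapping genes and near-identical copies are uncertain. No fold changes of the authors were used.

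Of 55359 identifiers, 52083 matched GENCODE M21 on GRCm38, which gave symbols, classes, coordinates and merged exon lengths. The other 3276 held 0.322 and 0.203% of the counts. CPM are counts over the library total (31686715 and 31230223), and TPM are counts over exon length scaled to 1000000. No test was run, since 1 group of 2 libraries is described. IRF4-RV libraries entered only the scaling factors of edgeR 4.0.16 and DESeq2 1.42.0, which were tried as alternatives in R 4.3.3. Other steps used Python 3.11.15, and the calculations were tested on simulated data. All 56 lists and the members of this report were chosen with earlier results of these data known. P2ry8 was the 1 listed gene without a match. Named by rule are *Irf4*, genes the paper names for the leukemia, up to 6 expressed members of each list with the highest TPM and members that were off, the 15 highest nuclear protein-coding genes, the 3 highest of each family, and 5 genes in each direction with the largest ratio between the libraries. Any other gene was named after its values were seen. Some members are counted in their lists but are not reported here by name or drawn in the plots of gene levels.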

Additional observations from a re-analysis of the deposited data

How the results depend on the processing

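Depth limits what can be called off: 3 counts equal 0.0947 and 0.0961 CPM, so a gene that was off may still be transcribed at a low level. Of the 9215 protein-coding genes that were off, 5567 had no count in either library. With 2 libraries of 1 line, the SD describes these libraries only. TPM rest on the annotated exon length, which is uncertain for genes with long or alternative transcripts. No paired analysis was possible because the results come from no test and from 1 group.

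The number of expressed protein-coding genes (9905) was 9880 with TMM factors and with DESeq2 size factors, 10340 at 0.5 CPM, 9397 at 2 CPM and 9462 at 1 TPM, and 10001 to 10020 with 1 library left out. The number of genes that were off (9215) was 9215 with either scaling and 9721 to 9789 with 1 library left out. It was 10754 with at most 10 counts and 5567 with 0 counts in each library, since the latter allows no stray read. Both scalings left all 56 lists within 1.5 times for the numbers expressed and off. Requiring 0 counts moved the number off in 41 lists. It fell to 0 for the pro-B, mature B, germinal center, endothelial, γ chain, other cytokine receptor, JAK and STAT, pre-B cell receptor, B lineage factor, NF-kB, MYC, V(D)J and deaminase lists. It fell to 1 for small pre-B, neuronal, inhibitor target, T and NK factor, AP-1, FOX and interferon-stimulated genes. It fell to 2 for stem cell, megakaryocyte, Ph-like, GATA, KLF and nuclear receptor genes. It fell to 3 for monocyte, erythroid, tyrosine kinase, chemokine receptor, TNF receptor, Toll-like, Fc receptor, BCL2 and sex-linked genes, to 4 for NK, to 5 for T cell, granulocyte and integrin, to 6 for lipid receptor and to 11 for HOX genes.

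At 0.5 CPM the number expressed became 3 for stem cell, 2 for monocyte, 1 for epithelial and 10 for tyrosine kinase genes. At 1 TPM it became 2 for stem cell, 1 for NK and 0 for granulocyte genes. With 1 library left out, stem cell genes expressed were 1 to 2, other cytokine receptors off were 5 to 8 and IRF genes off were 0 to 1, the higher values without EV-RV replicate 1 for the first and without EV-RV replicate 2 for the other two. Counting only segments classed as V genes, the leading segment became *Ighv1-82* and its mean share 70.2% in place of 96.7%, and with 1 library left out the share of *Ighv1-2* was 96.4 to 97.0%. Of 257 named genes, CPM stayed within 1.5 times under each of the 5 alternatives. TPM stayed within 1.5 times for 242 with the longest transcript and for 142 with the mean transcript length, with *Tcf4* moving most, to 2.55 and 8.07 times its value.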

Other observations

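Gene families outside the lists above ranged from wholly off to nearly complete. Solute carriers were expressed in 163 of 379 cases (43.0%) and off in 152 (40.1%). TRIM genes were expressed in 33 of 69 cases (47.8%) and off in 29 (42.0%). Both families were near the shares of all protein-coding genes, 45.3% expressed and 42.1% off. Of 1407 olfactory receptor genes and pseudogenes 1383 were off and 4 were expressed, the highest being the pseudogene *Olfr1060-ps1* at 40.3 and 36.1 CPM. Of 329 vomeronasal receptors 323 were off, and all 82 defensins were off. Of 113 keratins and keratin-associated proteins 104 were off, but *Krt17*, a keratin of stratified epithelia, was at 15.8 and 13.8 CPM (20.8 TPM). Of 91 cytosolic ribosomal protein genes 86 were expressed, and together they took 13 and 14.1% of the counts. Replication-dependent histones were expressed in 53 of 70 cases. Some families had 1 member that stood out in both libraries. The killer cell lectin-like receptor *Klra1* was at 52.9 and 49.5 CPM (63.1 TPM), while 23 of its 30 family members were off. *Kcnf1*, a subunit of voltage-gated potassium channels, was at 58.9 and 54.8 CPM, and the protease inhibitor *Serpinb1a* was at 223 and 209.7 CPM (204 TPM). Among chemokine genes *Ccl3* was at 7.95 and 7.49 CPM.

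Interferon-stimulated genes were expressed in 16 of 24 cases, with a median of 2.80 TPM. *Bst2* led the list at 219 TPM, *Oas1a* was at 42.0 and 43.3 CPM and *Irgm1* at 51.0 and 50.1 CPM. *Ifit1*, *Iigp1* and *Mx1* were off with 3 and 0, 1 and 2 and 0 and 1 counts, and Cxcl10 had no count. Of 8 sex-linked genes 7 were off, on both sides. *Xist*, the RNA of the inactive X chromosome, had 0 and 1 counts, Ddx3y had none, and *Kdm5d* was low at 0.0631 and 0.192 CPM. Of 175 protein-coding genes of the Y chromosome 173 were off and 1 was expressed, *Gm47283*, at 14.5 and 12.9 CPM.

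Counts on chromosome 1 included copies of mitochondrial genes. The pseudogene *Gm10925* had 139349 and 170746 counts and *Gm28437* had 111801 and 142135, close to the 105475 and 129000 counts of *mt-Atp6* and the 110865 and 141669 counts of *mt-Co3*. How reads with several alignments were counted is not given in the sources used here, so these levels are uncertain. Among genes of at least 10 CPM, the lowest log2 ratios of replicate 2 over replicate 1 were -1.47 for *Itsn1*, -1.47 for *Zrsr1*, -1.40 for *Gm12896*, -1.39 for *Gm12895* and -1.23 for *Gprin1*. The highest were 0.97 for *Bgn*, 0.80 for *Col1a1*, 0.78 for *Col1a2*, 0.72 for *Fn1* and 0.56 for *Ss18l2*. Biglycan (*Bgn*), fibronectin and both collagen chains are matrix genes, and *Bgn* is in none of the lists.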
